A study of Mus musculus with 6 samples.

Results

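TRBV14, TRBV17, TRBV23, TRBV24 and TRBV30 are 5 of the 24 Trbv genes found in the T cell receptor (TCR) β chains of CD4+ T cells from mouse kidney and spleen. They were selected on their low share of the unique molecular identifiers (UMIs, tags that mark single mRNA molecules) of the libraries, each with less than about 2%, so the low share itself is not a result. A clone was assigned to the first Trbv gene listed for it. Together the 5 genes held 24832 of 509648 UMIs (4.87%) and 18622 of 352074 clonotypes (5.29%), where a clonotype is a CDR3 nucleotide sequence with its Trbv and Trbj gene. In each library 99.6% or more of the clonotypes had a single Trbv gene listed.

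All 6 libraries came from C57BL/6 wildtype mice with 2 operations that cause renal fibrosis. The right ureter was first closed with a clip from day 0 until day 6 (RUUO, a reversible unilateral ureteral obstruction), and the left ureter was then ligated on day 17 (UUO, the lasting form). Kidneys and spleens were taken on day 22, with 1 library from the UUO kidney and 1 from the spleen of each of 3 mice. The mice were young adult females per the study's methods. Renal CD4+ T cells passed a negative isolation kit and then CD4 (L3T4) microbeads, splenic CD4+ T cells passed the microbeads alone, and both were then FACS-sorted. No library of an unoperated or sham-operated mouse was analysed here. The files hold TCR-β sequences only, so the labelled cell type could not be checked against its markers, and a larger number of UMIs can come from more cells or from more TCR-β mRNA per cell, which cannot be told apart.

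A TCR-β chain is assembled in the developing T cell by joining 1 Trbv, 1 Trbd and 1 Trbj gene segment, and the bases around the joints form the CDR3, the loop that contacts the peptide presented by an MHC molecule. Enzymes remove bases from the ends of the segments and add others before joining, so many joints are out of frame or contain a stop codon. T cells can carry a non-coding joint on the other chromosome and still transcribe it, while surface expression needs a coding chain. The Trbv segments lie in a row on mouse chromosome 6, and each supplies the start of the CDR3 and the germline-encoded loops before it. TRBV24 is Vβ17 in the older nomenclature, a segment known to be functional in some mouse strains and not in others. Which form the mice used here carry was not determined from these data.

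In the GRCm38.p6 annotation all 5 genes are listed as V segments on chromosome 6. Trbv14 lies at chr6:41135167-41135616 and Trbv17 at chr6:41163092-41163556. Trbv23 at chr6:41216073-41216526 and Trbv24 at chr6:41218091-41218557 are neighbours with 1564 bases between them. Trbv30 at chr6:41281376-41281990 lies farther along the row, 117819 bases after Trbv17.

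The V-derived starts of the CDR3 show how the 5 segments differ. Each sequence is the commonest V-derived start among spleen coding clonotypes that kept the V end with no base missing and none added to it, and the capitals mark the bases that were lost in most coding clonotypes.
TRBV14: tgtgccagcagttTCT
TRBV17: tgtgctagcagtagAGA
TRBV23: tgctccagcagtcaaTC
TRBV24: tgtgccagcagtctGTA
TRBV30: tgtagttctagaGA
The V end was 14 bases long in TRBV30, 16 bases in TRBV14 and 17 bases in TRBV17, TRBV23 and TRBV24. The sequence shown made up between 65.6% (TRBV17) and 95.2% (TRBV23) of such starts.

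The kidney libraries held 734 to 1308 UMIs in 508 to 809 clonotypes and the spleen libraries 102453 to 236000 UMIs in 82592 to 150332 clonotypes. Read depth per UMI was 465 to 784 in the kidneys and 8.54 to 21.2 in the spleens. Thus a Trbv gene with 0 UMIs may still make up 0.229% to 0.409% of a kidney library (a limit of 3 counts that covers counting error only). The 5 genes had 23, 36 and 22 clonotypes in kidneys 1, 2 and 3 and 6284, 7971 and 4286 in spleens 1, 2 and 3.

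Usage of the 5 genes was first described in the spleen, where the shares come from many clonotypes. TRBV17 was the most used with 1.82%, 1.73% and 1.69% of UMIs in mice 1, 2 and 3. TRBV14 held 1.13%, 1.19% and 1.43%. TRBV23 held 1.27%, 1.14% and 1.12%, so its range overlapped that of TRBV14. TRBV24 was lower than these 3 genes in every spleen, with 0.538%, 0.524% and 0.473%. TRBV30 was the least used with 0.231%, 0.20% and 0.214%. The spread between spleens was thus small against the distance between TRBV17, TRBV24 and TRBV30, and the neighbours TRBV14 and TRBV23 did not differ beyond their spread. Over all 6 libraries TRBV17 (1.75%) was the member nearest to the limit and TRBV26 (2.58%) the Trbv gene just outside it. TRBV29, TRBV12-1, TRBV12-2, TRBV21 and TRBV22 also lay under 2% and are not members.

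The next question was whether the 5 genes were used differently in the UUO kidney and the spleen of these mice. Of the 24 Trbv genes 1 passed the threshold of an adjusted p of 0.05 (4.17%) in edgeR's quasi-likelihood test, and 0 of the 5 members did. With the mouse as a block, 0 of the 24 genes passed. At an unadjusted p under 0.05, 0 members passed in edgeR and 0 in DESeq2. All 5 fitted differences had a negative sign, that is a lower fitted usage in the kidney. TRBV14 held 0.743%, 1.15% and 0.954% of the UMIs in kidneys 1, 2 and 3 (6, 15 and 7 UMIs). The kidney range reached into that of the spleens, and the fitted log2 difference of kidney against spleen was -0.35 ± 0.39 (SE, adjusted p = 0.625). TRBV17 held 1.73%, 0.917% and 2.32% (14, 12 and 17 UMIs), with kidney 2 below and kidney 3 above all spleens. Its log2 difference was -0.20 ± 0.32 (adjusted p = 0.751), and its sign turned without mouse 2 (0.19). TRBV23 held 0.743%, 1.30% and 0.545% (6, 17 and 4 UMIs), with kidney 2 above and kidneys 1 and 3 below all spleens. The log2 difference was -0.32 ± 0.39 (adjusted p = 0.625), and it ranged from -0.88 to -0.15 without 1 mouse.

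TRBV24 had 3, 1 and 2 UMIs in kidneys 1, 2 and 3, which are 0.372%, 0.0765% and 0.272%. All 3 kidneys thus lay below all 3 spleens, and the exact 95% interval of kidney 2 ended at 0.425%, below the shares of all spleens. The intervals of kidney 1 (0.0767% to 1.08%) and kidney 3 (0.0330% to 0.981%) cover the shares of all spleens. The log2 difference was -1.28 ± 0.68 (adjusted p = 0.412), and it ranged from -1.76 without mouse 1 to -0.64 without mouse 2. TRBV30 had 3, 2 and 0 UMIs in the kidneys (0.372%, 0.153% and 0%). For 0 of 734 UMIs the limit of 3 counts is 0.409%, and the exact 95% interval ends at 0.501%. The log2 difference was -0.29 ± 0.77 (adjusted p = 0.830). Its sign turned without mouse 3 (0.14) and when distinct clonotypes were counted (0.14).

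In the kidneys the 5 genes together held 3.97%, 3.59% and 4.09% of UMIs, and in the spleens 4.99%, 4.78% and 4.93%. With standard errors of 0.32 to 0.77 on the log2 scale, small differences in a single gene could not be detected. The parts of the low number of kidney UMIs and of the spread between mice in these errors were not tested.

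**Figure D1:**
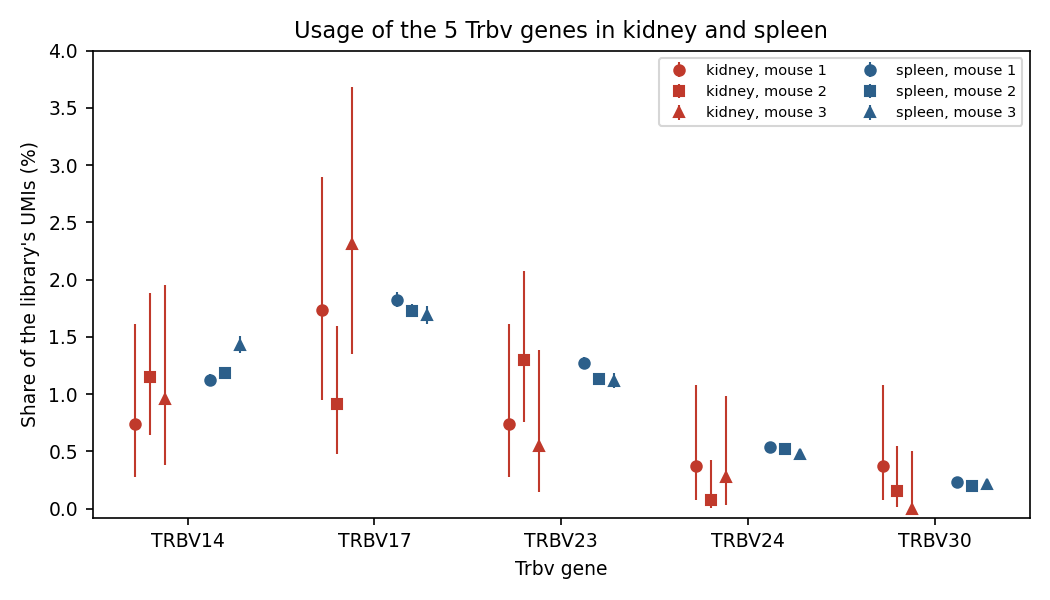
Share of UMIs (y axis, percent of the library) of the 5 Trbv genes (x axis) in kidney (red) and spleen (blue), with 1 symbol per mouse and bars for the exact 95% binomial interval, which covers counting error only. The spleen values lie close together, whereas the kidney intervals are wide, and TRBV30 is at 0% in kidney 3.

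The plot of usage by organ shows the kidney points scattered around the spleen points in TRBV17 and TRBV23, while the TRBV24 points of the kidney all lie lower than those of the spleen. The TRBV24 intervals of kidneys 1 and 3 overlap those of the spleens and that of kidney 2 does not.

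The strongest contrast among the 5 genes was in the share of coding clonotypes, that is those whose CDR3 was in frame and free of a stop codon. This does not show that the whole chain can be made into a protein. In TRBV24 only 25.5%, 23.6% and 24.8% of the spleen clonotypes of mice 1, 2 and 3 were coding (217 of 850, 262 of 1111 and 114 of 459). This was the lowest share of the 22 Trbv genes with enough clonotypes, with 24.6% ± 0.987 (SD, n = 3) against 64.4% ± 3.58 in the next gene, TRBV12-1. The Trbv genes outside the 5 reached 94.3%, 94.1% and 95.1% when pooled. TRBV24 differed from all other Trbv genes in the same spleen by -5.67 ± 0.0772 (SE) on the log2 odds scale, that is the log2 ratio of coding to non-coding clonotypes (limma adjusted p = 1.04e-06).

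TRBV17 was coding in 86.2%, 84.8% and 87.8% of spleen clonotypes. It was lower than all other Trbv genes by -1.31 ± 0.0600 log2 odds (adjusted p = 5.71e-05). TRBV14 was coding in 92.0%, 91.7% and 92.4%, a difference of -0.42 ± 0.0666 log2 odds (adjusted p = 0.00339). The TRBV14 call was lost among clonotypes with at least 2 UMIs (-0.32, adjusted p = 0.404). TRBV23 was coding in 93.0%, 93.5% and 93.9%, which did not pass the test (-0.11 ± 0.0707, adjusted p = 0.223).

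TRBV30 was coding in 88.1%, 95.1% and 92.7% of 311, 368 and 192 clonotypes. The spleen of mouse 2 was above the pooled other genes and the spleens of mice 1 and 3 were below them. The difference of -0.36 ± 0.285 log2 odds did not pass the test (adjusted p = 0.281). It passed without mouse 2 (-0.75, adjusted p = 1.20e-05), with UMIs in place of clonotypes (-0.62, adjusted p = 4.65e-05) and among clonotypes with at least 2 UMIs (-1.58, adjusted p = 1.46e-05), and was near 0 without mouse 1 (-0.04). In all, 18 of the 22 Trbv genes (81.8%) passed in either direction, 8 of them lower, and 3 of the 5 members passed, all 3 lower. Since most of the 22 genes passed, the calls are not particular to the members, and the sizes are given for that reason.

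**Figure D2:**
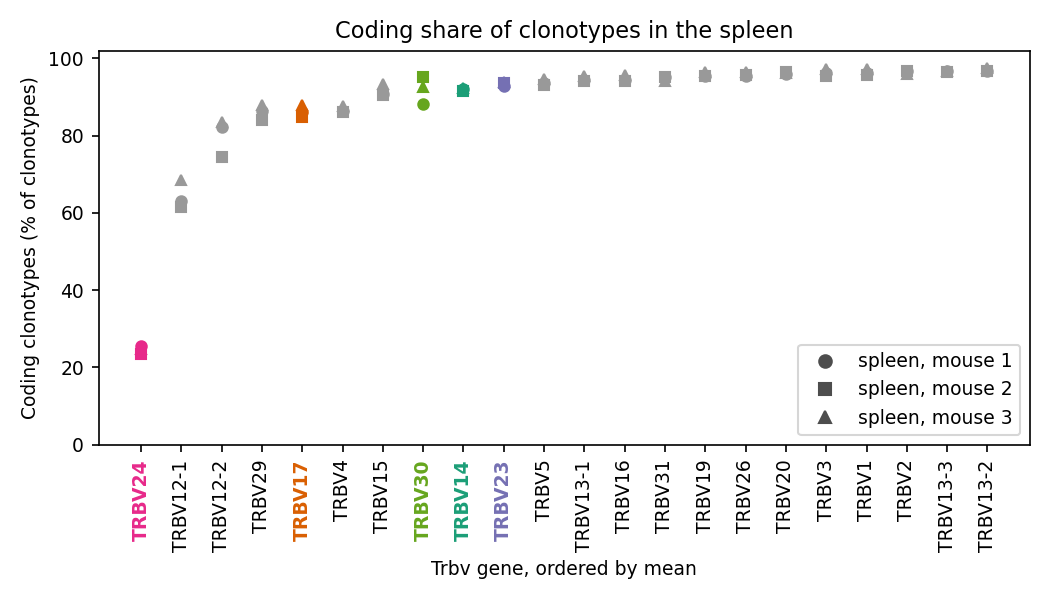
Coding clonotypes as a percentage of all clonotypes (y axis) for the 22 Trbv genes with at least 100 clonotypes in every spleen (x axis, ordered by the mean), with 1 symbol per spleen and the 5 genes in colour. TRBV24 lies between 23.6% and 25.5%, and the other 4 members lie between 84.8% and 95.1%.

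The plot of the coding share by Trbv gene shows TRBV24 far below the rest, whereas TRBV17 shares its range with TRBV29 and TRBV4 and the other 3 members lie among the genes used more often.

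Most non-coding clonotypes of TRBV24 were out of frame. In frame were 27.5%, 25.7% and 27.0% of its spleen clonotypes. Among these in-frame clonotypes 7.26%, 8.39% and 8.06% contained a stop codon in the CDR3 (17, 24 and 10 clonotypes), while the pooled genes outside the 5 had 0.262%, 0.241% and 0.224%. In TRBV14 and TRBV17 the stop share was 0.142% to 0.475%. In TRBV23 it was 0% to 0.180%, and TRBV30 had 0 in-frame clonotypes with a stop codon in all 3 spleens. The non-coding clonotypes of TRBV17 were out of frame too (281 of 285, 383 of 389 and 168 of 174). A coding clonotype is one whose CDR3 is in frame and free of a stop codon. The test reads the CDR3 only, so a defect elsewhere in the segment would not be seen in these values.

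In the kidney, TRBV24 was represented by non-coding clonotypes alone. All 6 of its kidney clonotypes were out of frame (0% coding, exact 95% interval 0% to 45.9%). UMIs of TRBV24 clonotypes with a coding CDR3 made up 0.146%, 0.131% and 0.121% of the coding UMIs in spleens 1, 2 and 3. The kidneys had 0 such UMIs, which by the limit of 3 counts allows up to 0.388%, 0.240% and 0.433% in kidneys 1, 2 and 3. Each of these limits lies above the shares of all spleens. Pooled over the 3 kidneys, 0 of 2714 UMIs allows up to 0.111% by the limit of 3 counts. It covers counting error only and no spread between mice. This limit lies below the shares of all spleens. A limit of 3 counts is lower than the end of an exact 95% interval, however, so it does not show a lower share in the kidneys. At the mean share of the spleens, 3.60 coding TRBV24 UMIs would correspond to the number of coding UMIs in the kidneys. In the other members 20 of 26 TRBV17, 21 of 22 TRBV14, 20 of 22 TRBV23 and 5 of 5 TRBV30 clonotypes were coding in the kidneys. The kidney shares had wide intervals, such as 56.4% to 91.0% for TRBV17, and all other Trbv genes reached 94.4% (1650 of 1748).

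The number of UMIs per clonotype was described without a test, because UMIs had selected the members. In the spleens TRBV24 had 1.07, 1.11 and 1.06 UMIs per clonotype in mice 1, 2 and 3, the lowest mean of the 22 genes (1.08 ± 0.0305). TRBV30 had 1.25, 1.28 and 1.14, and TRBV14 had 1.24, 1.30 and 1.17. TRBV23 (1.40, 1.51 and 1.21) and TRBV17 (1.48, 1.59 and 1.21) were close to the pooled genes outside the 5 (1.44, 1.58 and 1.24). Spleen 3, which had the fewest UMIs and the most reads per UMI of the spleens, had the lowest values in all 5 genes.

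Coding and non-coding clonotypes were then looked at separately. In TRBV24 a coding clonotype had 1.08, 1.13 and 1.04 UMIs and a non-coding clonotype 1.06, 1.11 and 1.06, so neither kind had more UMIs in all 3 spleens. In the pooled other genes a coding clonotype had 1.46, 1.61 and 1.25 UMIs and a non-coding clonotype 1.09, 1.13 and 1.04. In TRBV17, TRBV14 and TRBV23 coding clonotypes likewise had more UMIs than non-coding clonotypes in all 3 spleens, with means of 1.49 against 1.08 in TRBV17, 1.25 against 1.06 in TRBV14 and 1.39 against 1.09 in TRBV23. TRBV30 had more in coding clonotypes in mice 1 and 2 (1.26 against 1.16 and 1.29 against 1.06), and the values of mouse 3 were equal (1.14). The share of clonotypes with a single UMI was 93.4% ± 2.12 in TRBV24, and between 71.4% and 85.0% on average in the other 4 genes.

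**Figure D3:**
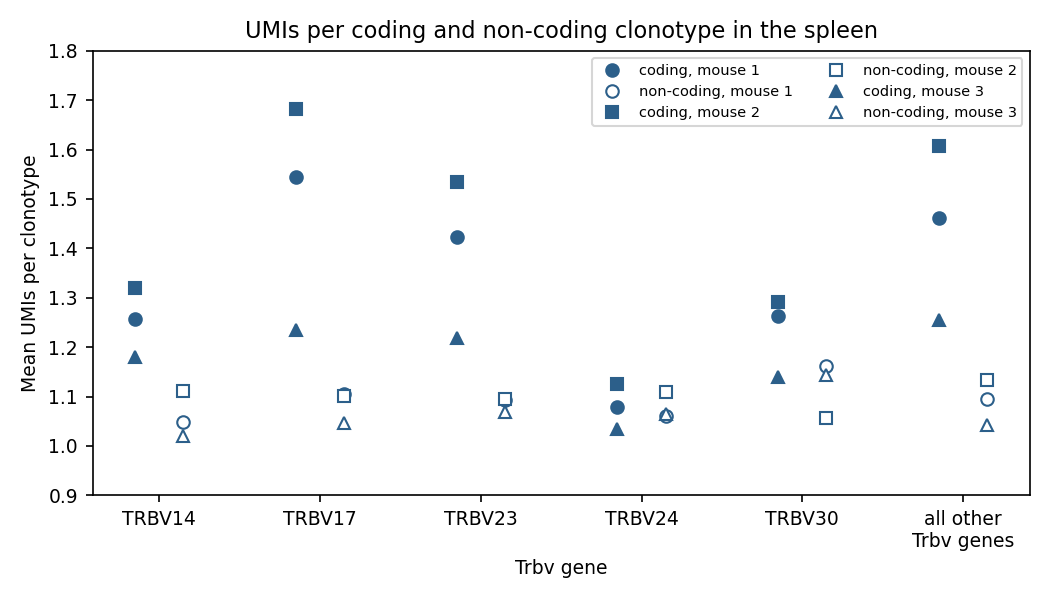
Mean UMIs per clonotype (y axis, starting at 0.9) for the 5 Trbv genes and the pooled other Trbv genes (x axis) in the spleen, with filled symbols for coding and open symbols for non-coding clonotypes and 1 symbol per mouse. The filled and open symbols of TRBV24 lie together between 1.04 and 1.13, whereas the filled symbols of the pooled other genes lie between 1.25 and 1.61.

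The plot of UMIs per coding and non-coding clonotype shows a gap between filled and open symbols for TRBV14, TRBV17 and TRBV23 in each spleen and none for TRBV24.

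CDR3 length differed among the 5 genes, and TRBV30 had the shortest mean CDR3 of all 22 genes. Its mean of 38.8 ± 0.113 bases was close to that of the next gene, TRBV20 (39.1 ± 0.0275). The coding clonotypes of TRBV30 measured 38.9, 38.9 and 38.7 bases on average in spleens 1, 2 and 3. The pooled genes outside the 5 had 41.6 bases in each spleen. The difference of TRBV30 to all other Trbv genes was -2.74 ± 0.0485 bases (SE, limma adjusted p = 9.49e-06). On average 39 bases was the commonest length in TRBV30 (33.3% ± 4.98 of coding clonotypes), though in spleen 3 a length of 36 bases (28.7%) was as common as 39 bases (28.1%), while 42 bases was the commonest in the pooled other genes (31.2%). The V part of the CDR3 was shorter in TRBV30 than in any other of the 22 genes. It held 11.6 ± 0.180 bases, against 12.0 ± 0.0525 in the next gene, TRBV20, and 14.0 in the pooled other genes. The intact V end of TRBV30 had 14 bases, against 16 or 17 in the other members, and its missing V bases did not pass the test given below. The bases between the V- and J-derived parts of TRBV30 were 8.41 ± 0.236 in number against 8.91.

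TRBV14 was also shorter, with 41.0, 40.9 and 40.7 bases and a difference of -0.70 ± 0.0591 bases (adjusted p = 0.000816). These 2 calls remained under every alternative that was run for the length. TRBV24 measured 42.6, 41.7 and 42.7 bases, a difference of 0.81 ± 0.251 bases (adjusted p = 0.0393). Its call was lost without mouse 1 (0.66, adjusted p = 0.190) and without mouse 3 (0.61, adjusted p = 0.0778), and the difference was 0.02 among clonotypes with at least 2 UMIs. TRBV17 measured 41.7, 41.7 and 41.9 bases (0.18 ± 0.0547, adjusted p = 0.0393). TRBV23 measured 41.6 bases in all 3 spleens (0.07 ± 0.0219, adjusted p = 0.0443). Both of these calls were lost without any 1 of the 3 mice, with adjusted p between 0.0639 and 0.136, and the TRBV17 difference was 0.11 without mouse 3. Of the 22 genes 21 passed the test (95.5%), and so did all 5 members, 2 lower and 3 higher.

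The lengths of TRBV24 were more widely spread than those of any other of the 22 genes. The SD over its coding clonotypes was 5.05, 5.70 and 5.44 bases in spleens 1, 2 and 3, against 4.10, 4.10 and 4.12 in the pooled other genes. A length of 51 bases was found in 6.91% ± 3.26 of TRBV24 coding clonotypes and in 1.76% ± 0.0299 in the pooled other genes. A length of 48 bases was found in 13.4% ± 1.61 and in 7.61% ± 0.0738. These shares rest on 217, 262 and 114 coding TRBV24 clonotypes.

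**Figure D4:**
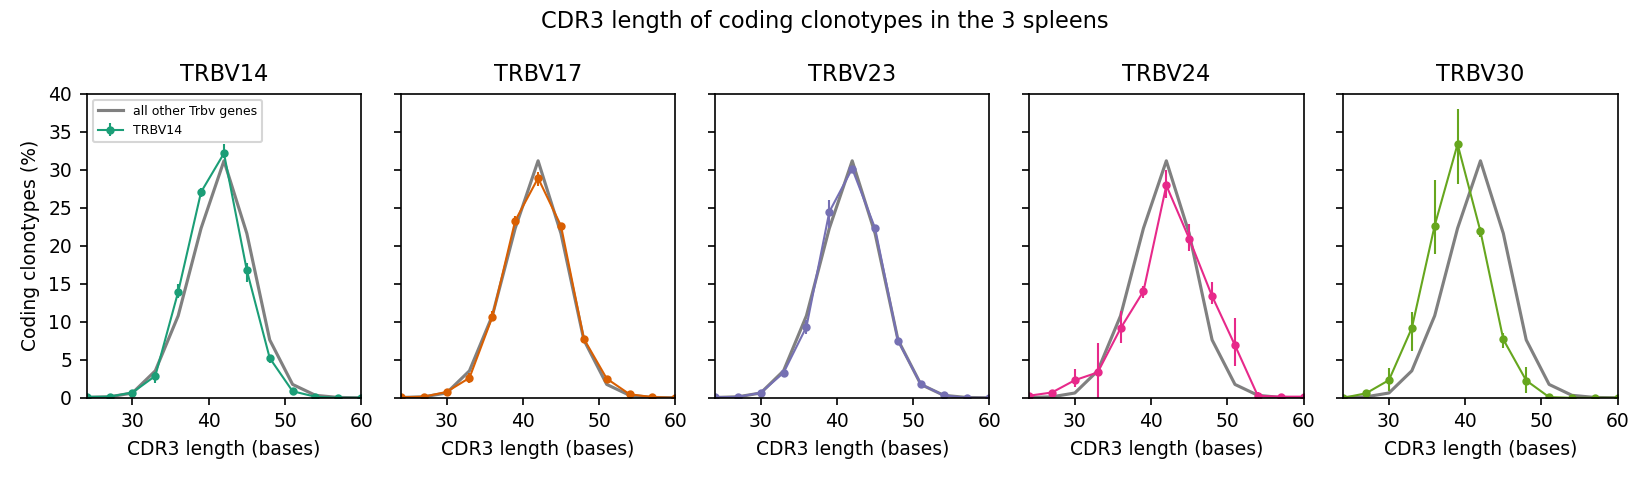
Share of coding clonotypes (y axis, percent) by CDR3 length (x axis, bases) in each of the 5 Trbv genes (coloured, points at the mean of 3 spleens and bars from the lowest to the highest spleen) and in the pooled other Trbv genes (grey). The TRBV30 curve peaks at 39 bases, the grey curve at 42 bases, and the TRBV24 curve has a broader right side.

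The plot of CDR3 lengths shows TRBV17 and TRBV23 almost on the grey curve, where their differences were under 1 base.

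More germline bases were missing from the V end in 4 of the 5 genes than in the other Trbv genes. TRBV24 lacked 3.07, 3.43 and 2.98 V bases on average in spleens 1, 2 and 3, a difference of 0.74 ± 0.105 (limma adjusted p = 0.00343). TRBV14 lacked 3.13, 3.14 and 3.15 bases, with a difference of 0.73 ± 0.0132 (adjusted p = 7.61e-06). TRBV17 lacked 2.96, 2.79 and 2.77 bases (0.43 ± 0.0483, adjusted p = 0.00167) and TRBV23 lacked 2.75, 2.66 and 2.79 bases (0.31 ± 0.0305, adjusted p = 0.00113). The pooled genes outside the 5 lacked 2.40, 2.40 and 2.41 bases. In TRBV30 the values of 2.82, 2.46 and 2.53 bases did not pass the test (0.18 ± 0.0845, adjusted p = 0.106). An intact V end was kept by 7.24% to 7.77% of TRBV14 and 13.2% to 15.7% of TRBV24 coding clonotypes, against 27.7% in the pooled other genes. TRBV23 kept it in 28.1%, 29.8% and 28.7%, slightly above the pooled other genes in every spleen, although its mean number of missing bases was higher. Of the 22 Trbv genes 20 passed (90.9%), 12 of them higher, and all 4 members that passed were higher. The 4 calls remained under each alternative that was run, including the ones without 1 mouse.

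Single clonotypes show these junctions. For each gene the coding clonotype with the most UMIs in the 3 spleens is given, with the bases between the V- and J-derived parts in capitals.
TRBV14 with TRBJ2-4: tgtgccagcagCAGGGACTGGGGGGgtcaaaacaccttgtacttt
TRBV17 with TRBJ2-1: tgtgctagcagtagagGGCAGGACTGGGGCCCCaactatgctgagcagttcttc
TRBV23 with TRBJ1-1: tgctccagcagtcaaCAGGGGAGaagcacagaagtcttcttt
TRBV24 with TRBJ2-7: tgtgccagcagtctgtatgaacagtacttc
TRBV30 with TRBJ2-5: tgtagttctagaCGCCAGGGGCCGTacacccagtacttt
All 5 were found in spleen 2, the spleen with the most UMIs, and in no other spleen. The TRBV23 clonotype had 54 UMIs (2.01% of the TRBV23 UMIs of that spleen), the TRBV17 clonotype 25, the TRBV30 clonotype 22 (4.67%), the TRBV14 clonotype 17 and the TRBV24 clonotype 7. The TRBV14 clonotype also had 2 UMIs in kidney 2. The TRBV24 clonotype had no base between its V- and J-derived parts and a CDR3 of 30 bases.

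The largest non-coding TRBV24 clonotype is shown for comparison and was chosen after its values were seen.
TRBV24 with TRBJ2-7: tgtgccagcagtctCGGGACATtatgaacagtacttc
It had 6 UMIs in spleen 2. Its CDR3 of 37 bases is 1 base past whole codons and so out of frame.

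Of the 81 kidney clonotypes of these 5 genes 64 had 1 UMI (79.0%), and 5 had at least 3 UMIs (6.17%), 4 of TRBV17 and 1 of TRBV23. Among the other Trbv genes 76.7% of 1748 kidney clonotypes had 1 UMI and 9.50% had at least 3 UMIs, and no test was made. The 5 clonotypes of the rarely used genes with at least 3 UMIs are listed with the bases between the V- and J-derived parts in capitals.
TRBV17 with TRBJ2-3 in kidney 1: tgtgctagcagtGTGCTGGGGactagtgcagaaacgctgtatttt
TRBV17 with TRBJ1-1 in kidney 2: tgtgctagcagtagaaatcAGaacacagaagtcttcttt
TRBV17 with TRBJ2-4 in kidney 2: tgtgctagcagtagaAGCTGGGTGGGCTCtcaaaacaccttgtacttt
TRBV17 with TRBJ1-1 in kidney 3: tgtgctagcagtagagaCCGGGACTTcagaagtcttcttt
TRBV23 with TRBJ1-1 in kidney 2: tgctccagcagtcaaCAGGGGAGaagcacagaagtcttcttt
The TRBV17 clonotype of kidney 1 had 7 UMIs there and 23 UMIs in the spleen of the same mouse. In kidney 2 the TRBV17 clonotype with TRBJ1-1 had 4 UMIs, that with TRBJ2-4 had 3 UMIs, and both had 9 UMIs in spleen 2. The first of them has 19 V-derived bases because the files count 2 bases past the V end with the V part, and in their alignment it differs from the V segment at 1 base. The TRBV23 clonotype of kidney 2 had 3 UMIs and is the one with 54 UMIs in spleen 2. The TRBV17 clonotype of kidney 3 had 4 UMIs, was found in none of the 3 spleens, and was out of frame with a CDR3 of 40 bases.

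Many kidney clonotypes of the 5 genes were found again in the spleen of the same mouse. In mice 1, 2 and 3 this held for 10 of 23, 17 of 36 and 9 of 22 clonotypes (43.5%, 47.2% and 40.9%, a mean of 43.9% ± 3.17). The other Trbv genes had 47.9%, 49.7% and 41.8% (46.4% ± 4.14), so the means differed by less than 1 SD. With clonotypes matched on the CDR3 amino acid sequence, the Trbv and the Trbj gene, the means were 45.3% ± 5.48 for the 5 genes and 53.7% ± 5.15 for the others, a gap of more than 1 SD. No test was made. By gene, 12 of 22 TRBV23, 11 of 26 TRBV17, 9 of 22 TRBV14, 2 of 6 TRBV24 and 2 of 5 TRBV30 clonotypes were found. In the spleens of the other mice 1 of the 81 clonotypes was found, against 171 of 1748 for the other Trbv genes.

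Coding clonotypes of the 5 genes were seldom shared between spleens. On average 1.89% ± 0.267 of a spleen's coding clonotypes of the 5 genes were also found in another spleen, against 8.03% ± 1.21 for the pooled other genes. TRBV24 had the lowest share of the 22 genes (0.281% ± 0.246) and TRBV30 the next lowest (0.526% ± 0.224). TRBV14 had 1.60% ± 0.304, TRBV23 1.81% ± 0.164 and TRBV17 2.59% ± 0.656. A low share was not particular to the members. TRBV29, which also lay under 2% of UMIs, had 1.35% ± 0.412, a lower mean than TRBV14, TRBV23 and TRBV17. TRBV12-1 and TRBV12-2, also under 2%, had higher means than all members (3.47% ± 0.190 and 4.86% ± 0.591). The genes also differed in the number of clonotypes sampled, whose part in these shares was not tested, and the values are a description.

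The last comparison asked with which Trbj genes the 5 Trbv genes were joined in coding spleen clonotypes. The Trbj genes lie in 2 clusters, Trbj1 and Trbj2. Of the 264 pairs of 22 Trbv and 12 Trbj genes 163 differed from the mean of the other Trbv genes (61.7%) in edgeR's quasi-likelihood test. In this test each Trbv gene of each spleen was a separate library, so small p-values do not come from the spread between mice alone. The log2 differences give each of the other Trbv genes equal weight. The percentages for the other genes pool all their clonotypes, so the log2 differences and the percentages can differ in size or sign. Of the 60 pairs of the 5 members 28 differed, 13 lower and 15 higher, a lower share of calls than over all pairs. The members were selected for low usage and so brought few clonotypes to this test. The lower share of calls is therefore not read as a trait of the members. Of the other genes under 2% of UMIs, TRBV29 had 4 calls, TRBV12-1 had 5 and TRBV12-2 had 9. TRBV17 differed in 10 of 12 pairs, TRBV30 in 6, TRBV14 and TRBV23 in 5 each, and TRBV24 in 2, the smallest number of the 22 genes. TRBV24 and TRBV30 also had the fewest coding clonotypes of the 5 genes.

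TRBV14 was paired less often with TRBJ1-2. This Trbj gene was found in 2.35%, 2.64% and 2.76% of TRBV14 clonotypes in spleens 1, 2 and 3, against 5.41%, 5.61% and 5.02% in all other Trbv genes (log2 difference -1.08 ± 0.123, adjusted p = 1.28e-16). TRBJ2-5 was found in 18.8%, 18.9% and 18.8%, against 13.5%, 13.3% and 13.9% (0.42 ± 0.0504, adjusted p = 1.12e-14). TRBJ2-4 was higher by 0.30 ± 0.0725 (adjusted p = 8.12e-05), with 10.9% ± 0.308 against 9.29%. All 3 calls of TRBV14 were kept under each alternative that was run.

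TRBV17 resembled TRBV14 in its low pairing with TRBJ1-2, which was found in 2.41%, 4.05% and 2.23% of its clonotypes (-0.83 ± 0.110, adjusted p = 6.87e-13). It was paired more often with TRBJ2-2, at 7.84%, 7.64% and 9.47% against 6.10%, 5.88% and 6.33% (0.49 ± 0.0813, adjusted p = 9.85e-09), and less often with TRBJ1-5 (-0.47 ± 0.121, adjusted p = 0.00203). The TRBJ1-5 call was lost among clonotypes with at least 2 UMIs (adjusted p = 0.0754). Low pairing with TRBJ1-2 was not particular to TRBV14 and TRBV17, since TRBV5 (-0.87) and TRBV15 (-0.80) were also called lower. Over the 12 Trbj genes the pairing of TRBV14 was most like that of TRBV17 among 21 genes (Pearson r = 0.71, a description over Trbj genes of the same 3 libraries), and the reverse held as well.

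TRBV23 was paired less often with TRBJ1-3, found in 2.54%, 1.98% and 2.25% of its clonotypes against 5.67%, 5.81% and 5.33% in the other genes (-1.17 ± 0.141, adjusted p = 6.02e-15). TRBJ2-5 was higher at 15.8%, 17.1% and 17.5% against 13.5%, 13.3% and 13.9% (0.24 ± 0.0557, adjusted p = 8.57e-05). TRBJ2-2 was lower by -0.26 ± 0.108 (adjusted p = 0.0254), a call that was lost without mouse 1 (adjusted p = 0.0969), without mouse 3 (adjusted p = 0.124) and among clonotypes with at least 2 UMIs (adjusted p = 0.182). The gene most like TRBV23 was TRBV30, with r = 0.32, the weakest likeness among the 5 members.

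TRBV24 was paired more often with TRBJ1-6 and TRBJ1-5 of the first Trbj cluster. TRBJ1-6 was found in 4.15%, 6.49% and 5.26% of its clonotypes (9, 17 and 6 clonotypes) against 3.38%, 3.36% and 3.04% in the other genes (1.08 ± 0.255, adjusted p = 0.000429). The call was lost without mouse 2 (0.81, adjusted p = 0.0870), and the sign turned among clonotypes with at least 2 UMIs (-0.14, adjusted p = 0.946). TRBJ1-5 was found in 4.15%, 3.82% and 4.39% (9, 10 and 5 clonotypes), against 2.81%, 3.01% and 2.75% (0.70 ± 0.268, adjusted p = 0.0477). This call was lost without any 1 of the 3 mice, with adjusted p of 0.169, 0.0936 and 0.0929 without mice 1, 2 and 3. Non-coding TRBV24 clonotypes held TRBJ1-6 in 4.28% ± 0.195 and TRBJ1-5 in 3.21% ± 0.339, against 4.92% ± 0.395 and 3.32% ± 0.178 in non-coding clonotypes of the pooled other genes. The gene most like TRBV24 was TRBV1 (r = 0.62). Outside the members, TRBV4 (0.95) and TRBV19 (0.86) were among the genes also called higher with TRBJ1-6.

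TRBV30 was seldom joined to TRBJ1-6. The pair was found in 3, 1 and 0 coding clonotypes of spleens 1, 2 and 3 (1.09%, 0.286% and 0%), against 3.38%, 3.38% and 3.05% of the other genes (-2.51 ± 0.455, adjusted p = 3.45e-06). Without mouse 1 the fitted difference was -3.87, and among clonotypes with at least 2 UMIs it was -0.06 (adjusted p = 0.958). TRBJ1-5 was found in 3, 2 and 4 clonotypes (-1.24 ± 0.347, adjusted p = 0.00536), with the call lost without mouse 2 (-0.70, adjusted p = 0.254) and the sign turned among clonotypes with at least 2 UMIs (0.09, adjusted p = 0.946). TRBJ1-3 was found in 4, 12 and 7 clonotypes (-0.80 ± 0.283, adjusted p = 0.00954), with the call lost without mouse 1 (-0.45, adjusted p = 0.207). The gene most like TRBV30 was TRBV3 (r = 0.78). Outside the members, TRBV3 (-1.46) and TRBV16 (-1.13) were among the genes also called lower with TRBJ1-6.

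Genes of the first Trbj cluster made up 23.4% ± 2.04 of TRBV30 coding clonotypes, the lowest share of the 22 genes, and 23.9% ± 3.01 of those of TRBV17. TRBV14 had 27.1% ± 0.535 and TRBV23 had 31.0% ± 0.123. TRBV24 lay on the other side of the pooled other genes (34.7% ± 1.28) with 37.4% ± 5.32, and its spleen 1 value of 31.3% was below them. No test was made for this sum.

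**Figure D5:**
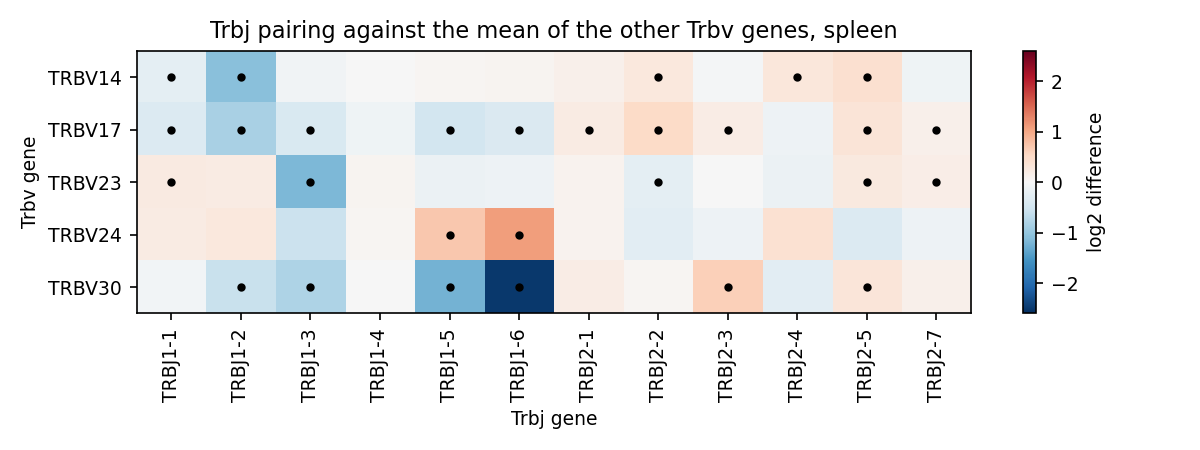
Fitted log2 difference (colour) in the frequency of 12 Trbj genes (x axis) among coding spleen clonotypes of the 5 Trbv genes (y axis) against the mean of the other Trbv genes, with a dot for an adjusted p under 0.05. The darkest field is TRBV30 with TRBJ1-6 (-2.51), and TRBV24 has 2 dots, both higher.

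The plot of Trbj pairing shows the lower values of TRBV14, TRBV17 and TRBV30 mostly in the first Trbj cluster. Both called fields of TRBV24 in that cluster were higher, but neither call was kept in every fit without 1 mouse. The lowest value of TRBV24 also lay in that cluster (TRBJ1-3, -0.56 ± 0.31, not called).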

How the data were processed

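TCR-β mRNA of FACS-sorted CD4+ T cells was amplified by 5′ RACE with UMIs. With MiXCR the authors built clones from the reads, and the deposited values are a raw UMI count and a raw read count per clone. The submitters' processing notes also name R 4.4.2 and the build GRCm38. The deposited files give the fraction of UMIs and reads per clone, which served to check the counts, and the lowest quality score in the CDR3, which was not used.

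Clones were used as deposited, and each combination of CDR3 nucleotide sequence, Trbv and Trbj gene was unique within a library. The 5 members, the tests and the lists were chosen with earlier results of these data known. Trbv usage (UMIs, 24 genes with at least 10 UMIs, library sizes only) and Trbj pairing (coding spleen clonotypes, mouse as a block) were tested with edgeR 4.0.16 quasi-likelihood tests in R 4.3.3. Coding share (log2 odds with an offset of 0.5), CDR3 length and V bases missing were tested with limma 3.58.1 on the deviation of each Trbv gene from all others in the same spleen, for 22 genes with at least 100 clonotypes in every spleen. All tests were two-sided, with Benjamini-Hochberg adjustment over all genes or pairs and a threshold of 0.05. The Trbj pairing omitted 2 of 14 Trbj genes with too few clonotypes. P-values of usage, coding share, CDR3 length and V bases missing rest on the spread between 3 mice, with variance information shared over genes. In the Trbj pairing each Trbv gene of each spleen was entered as a separate library. Its p-values rest on the scatter of these libraries over 22 genes and 3 mice, and not on the spread between mice alone. The code of the tests was checked on simulated data with known effects. The simulated counts had no spread between mice, so this check does not measure error rates or power in these data.

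Named were the members, the Trbv genes next to the 2% limit or lying under it, the genes next in an order or most like a member, up to 3 called Trbj genes per member, and the clonotypes with the most UMIs in the spleens or at least 3 UMIs in a kidney. TRBV29, TRBV12-1, TRBV12-2, TRBV21, TRBV22, TRBV4, TRBV5, TRBV15, TRBV16 and TRBV19 were named after their values were seen. Gene names and positions come from RefSeq (GRCm38.p6), where all 24 names matched, and this annotation served for Trbv positions only. No genome was used here.

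The labels tie each kidney to the spleen of the same number through the mouse. Over 24 Trbv genes, the deviations of such pairs from the mean of their organ correlated with r = 0.41, 0.28 and 0.30 in mice 1, 2 and 3. Alternatives changed the normalization (TMM), the tool (DESeq2 1.42.0), the unit, the non-coding clonotypes, the minimum UMIs, the filter, tied V hits, the mouse block and the mice included. A set restricted to clones with 1 V hit was added after seeing the data.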

Additional observations from a re-analysis of the deposited data

How the results depend on the processing

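The number of Trbv genes called between kidney and spleen (1) was 2 with TMM normalization, 2 with DESeq2, 0 with distinct clonotypes, 3 with reads, and 0 with the mouse as a replicate block (1 gene at an unadjusted p under 0.05), and it ranged from 0 to 0 without 1 mouse (1 to 3 genes at an unadjusted p under 0.05). None of the 5 members was called in any of these fits. The fitted usage of TRBV30 turned to 0.14 with distinct clonotypes. Without 1 mouse the usage of TRBV17 ranged from -0.52 to 0.19 and that of TRBV30 from -1.08 to 0.14. The number of members called for CDR3 length (5) was 3 with UMIs, 3 with at least 2 UMIs per clonotype, 3 with genes of at least 10 clonotypes, and 2 to 3 without 1 mouse. With at least 2 UMIs per clonotype the Trbj pairing had 100 calls of 242 pairs and 16 member calls, 10 of them also among the 28. TRBJ1-3 could not be fitted there because TRBV24 had no such clonotype with it. The differences of TRBV24 with TRBJ1-6 (-0.14) and TRBV30 with TRBJ1-5 (0.088) turned in sign in that setting. Without the replicate block the Trbj pairing had 158 calls in place of 163, and 27 member calls in place of 28. The share of kidney clonotypes found in the spleen was 32.7% when at least 2 spleen UMIs were required, and 34.6% for the other genes. The causes of these changes were not tested. The kidneys limit usage, since the members had 109 UMIs there, and TRBV24 and TRBV30 limit the spleen results, since they had the fewest coding clonotypes.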
